A study of Mus musculus with 64 samples.

Results

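The core and output genes of the circadian clock followed here through mouse development were Arntl, Clock, Npas2, Per1, Per2, Per3, Cry1, Nr1d1, Dbp and Tef. They were chosen by symbol, and all 10 were matched among the 23338 genes counted in each of the 64 libraries. The study profiled RNA from eight-cell embryos, embryonic stem (ES) cells, fetal liver and adult liver of C57BL/6 mice (C57BL/6 J in the study's methods) to ask how males and females differ before and after implantation. Eight-cell embryos (6 male, 6 female) were taken at 2.5 days post-coitum from 4 litters after natural mating, each library held the cells of 1 embryo, and the sexes were assigned by the study from the RNA. The ES lines (2 male, 2 female) were derived from eight-cell embryos and grown in LIF with 2 inhibitors, against MEK and GSK3. Fetal livers (12 male, 12 female) came from late gestation, and adult livers (12 male, 12 female) from mice of 15 to 20 weeks. No label gives a transgene, and the inhibitors of the ES cultures were the only drugs named. The mice were kept on a cycle of 12 h light and 12 h dark, and per the study's methods adults and pregnant females were taken from 10 am to 12 pm. The hour for each animal was not given in the sources used here, and no time course can be read from these samples. Nothing in the labels says which fetal livers shared a litter, and p-values over fetal livers treat them as separate animals.

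The clock is a feedback loop of transcription. ARNTL (also called BMAL1) pairs with CLOCK, or with its paralogue NPAS2, and activates genes that carry E-boxes, among them the Per and Cry genes, Nr1d1, Dbp and Tef. PER and CRY proteins then repress that pair, NR1D1 (REV-ERB alpha) represses Arntl, Clock and Npas2, and the related bZIP factors DBP and TEF act through D-boxes, for example at the Per genes. In adult liver, Arntl, Clock and Npas2 RNA is known to peak around dawn and that of Nr1d1, Dbp, Tef and Per3 during the day, and the loop drives genes of bile acid, haem, glycogen and lipid metabolism. Rhythms are known to be weak or absent in early embryos and in undifferentiated ES cells, and to mature in liver around and after birth.

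The sequences before the start sites are shown because they carry the letters through which the loop is described to act. RefSeq (GRCm38.p6) promoter windows of 300 bases, from 250 before to 50 after a start site, were found for 9 of the 10 genes, 14 windows in all. Per2 had no entry. The motifs searched on both strands were the E-box CACGTG, the E-prime-box CACGTT, the D-box TTATGTAA or TTACGTAA, and the ROR element, at which NR1D1 and ROR factors bind, as TAGGTCA or TGGGTCA. None of these motifs overlaps another here. Of the 32851 mouse windows of this length, 7.15% hold the E-box, 4.68% the E-prime-box, 1.06% the D-box and 6.45% the ROR element. Counted by gene the shares are 8.09%, 5.44%, 1.23% and 7.35%. An E-box was found in 1 of the 2 windows of Per1, in Cry1 and in both windows of Tef. Cry1 and Nr1d1 held an E-prime-box (on the other strand, read as AACGTG). Per3 held a pair of D-boxes, and 1 of the 2 windows of Arntl a ROR element. No match lay in the windows of Clock, Npas2 and Dbp, which says only that these letters are not in them. A match is a description of letters and not a shown binding site. The 250 bases before the start are printed 5′ to 3′ along the gene's strand with the motifs in capitals for Per3 (chr4:151044666-151044915, minus strand), Cry1 (chr10:85185055-85185304, minus strand), Per1 (chr11:69098699-69098948, plus strand), Nr1d1 (chr11:98775378-98775627, minus strand) and 2 start sites of Tef (chr15:81802423-81802672 and chr15:81811164-81811413, plus strand). For Arntl the 30 bases around the ROR element are printed (chr7:113207530-113207559, plus strand), which lie after the start site, from base 20 to base 49.
Per3: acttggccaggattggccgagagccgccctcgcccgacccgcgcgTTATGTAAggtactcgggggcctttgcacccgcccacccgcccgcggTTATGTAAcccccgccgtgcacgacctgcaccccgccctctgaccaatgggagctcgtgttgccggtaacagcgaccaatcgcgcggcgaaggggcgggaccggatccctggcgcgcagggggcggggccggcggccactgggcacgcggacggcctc
Cry1: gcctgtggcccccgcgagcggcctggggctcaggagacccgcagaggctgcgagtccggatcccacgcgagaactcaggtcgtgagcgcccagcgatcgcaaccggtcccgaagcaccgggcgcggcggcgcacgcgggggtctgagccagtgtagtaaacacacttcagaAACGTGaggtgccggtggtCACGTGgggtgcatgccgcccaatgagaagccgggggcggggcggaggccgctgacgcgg
Per1: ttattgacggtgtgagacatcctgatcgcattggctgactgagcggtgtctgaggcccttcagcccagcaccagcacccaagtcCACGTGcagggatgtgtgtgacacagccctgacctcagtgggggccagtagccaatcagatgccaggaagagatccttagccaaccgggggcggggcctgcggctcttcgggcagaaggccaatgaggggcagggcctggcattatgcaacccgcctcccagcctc
Nr1d1: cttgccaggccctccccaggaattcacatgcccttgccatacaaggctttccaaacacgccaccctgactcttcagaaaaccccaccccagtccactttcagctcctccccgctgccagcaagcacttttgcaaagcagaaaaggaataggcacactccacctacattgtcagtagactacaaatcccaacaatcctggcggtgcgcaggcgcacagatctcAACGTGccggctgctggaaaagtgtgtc
Tef: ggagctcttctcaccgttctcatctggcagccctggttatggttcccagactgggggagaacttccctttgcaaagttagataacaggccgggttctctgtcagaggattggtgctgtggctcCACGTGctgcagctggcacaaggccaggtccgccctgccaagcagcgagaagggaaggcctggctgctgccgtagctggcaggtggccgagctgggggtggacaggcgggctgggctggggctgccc
Tef: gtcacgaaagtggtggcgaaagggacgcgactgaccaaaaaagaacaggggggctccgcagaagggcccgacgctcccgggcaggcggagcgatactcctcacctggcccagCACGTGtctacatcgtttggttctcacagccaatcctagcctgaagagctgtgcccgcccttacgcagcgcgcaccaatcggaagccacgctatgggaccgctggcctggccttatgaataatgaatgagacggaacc
Arntl: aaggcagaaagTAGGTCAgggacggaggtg

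The genes themselves lie on 7 chromosomes in the same assembly: Npas2 (chr1:39193702-39363240) and Per2 (chr1:91415977-91459351) on chromosome 1, Per3 at chr4:150997018-151044707, Clock at chr5:76209868-76305603, Dbp (chr7:45705100-45710203) and Arntl (chr7:113178471-113314126) on chromosome 7, Cry1 at chr10:85131700-85185054, Per1 (chr11:69095108-69109965) and Nr1d1 (chr11:98767932-98775377) on chromosome 11, and Tef at chr15:81802673-81826863. Exons of Dbp overlap those of Sphk2 on the other strand over 539 bases (29.3% of Dbp's exonic length), and exons of Nr1d1 overlap those of Thra over 263 bases (9.67%). The strand setting of the counting was not given in the sources used here, so reads in these stretches cannot be told apart between the partners.

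Reads on genes numbered 4659656 to 7725432 per embryo, 9857929 to 10386931 per ES line, 5145371 to 8499603 per fetal liver and 1567583 to 4757610 per adult liver. Levels are given as CPM, counts per 1000000 reads on genes after TMM scaling, a factor that aligns the bulk of genes between libraries. Before TMM scaling, a floor of 3 reads was worth 0.631 to 1.91 CPM in adult liver and 0.289 to 0.644 CPM at the other stages. Hepatocyte markers (Alb, Ttr and others) summed to 42530 to 60090 CPM in adult liver, 19440 to 26190 in fetal liver and at most 2.44 in ES cells, pluripotency markers (Pou5f1, Nanog and others) summed to 2163 to 2633 CPM in ES cells and at most 3.46 in liver, and erythroid markers summed to 3598 to 5368 CPM in fetal liver and 18.4 to 249 in adult liver, with Hbb-b1 and Hba-a1 at 0 reads in every adult liver. In whole tissue, fewer cells of a type and less RNA per cell cannot be told apart, and the part of blood-forming cells in the fetal levels was not tested. Among the fetal livers, male 11 had the highest share of reads outside genes (49.0%), and female 14 had biliary markers summing to 285 CPM against at most 31.8 in the others. In 8 of the 24 adult livers (4 male, 4 female) under 40% of mapped reads lay on genes.

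Between fetal and adult liver, Clock, Nr1d1, Dbp and Tef were higher in adults and Per1 and Per2 were lower, in an edgeR fit over the 48 livers. Per3 was called higher in that fit, a call that was lost, with the sign turned, when libraries were scaled by their totals in place of TMM. A difference was called where the Benjamini-Hochberg adjusted p, taken over all genes tested, was under 0.1 and the absolute log2 fold change above 0.5. By that rule 7 of the 10 clock genes were called (5 higher, 2 lower), beside a background of 67.1% of the 13026 genes tested (31.7% higher, 35.4% lower). The share called is close to that of all genes. Nr1d1 and Dbp passed the filter on low counts only through the adult livers, where they are high, and Npas2 only through the fetal livers, so their differences are given as descriptions. Scaled by library totals, 9 clock genes were called (4 higher, 5 lower), the median log2 difference of all genes moved from -0.05 to -0.61, and the calls over all genes split into 2399 higher and 7034 lower in place of 4132 and 4610. In TMM-scaled CPM every library of one liver lay above every library of the other for 4 of the 10 (Clock, Nr1d1, Dbp and Tef), beside 40.7% of all genes tested. With TMM the median for the 10 genes was 0.18. Stage and the cell makeup of the livers cannot be told apart.

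Among the activators, Arntl had a narrow fetal range and a wide adult one. It ran from 27.4 through a median of 34.7 to 40.7 CPM over the 24 fetal livers, and from 8.30 through 22.9 to 61.2 CPM over the 24 adult livers. Of the adult livers, 14 lay below every fetal liver and 2 above every one. The mean difference (log2 -0.35, SE 0.13, adjusted p = 0.00856) passed the p threshold and missed the fold threshold.

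Clock, which encodes ARNTL's partner, ran from 47.5 through 54.2 to 64.6 CPM in fetal liver and from 92.4 through 140 to 190 CPM in adult liver. All 24 adult livers lay above all fetal ones (log2 1.48, SE 0.055, adjusted p = 4.84e-32). Npas2, the paralogue of Clock that can take its place, was low at 0.851, 2.54 and 4.56 CPM (lowest, median and highest) in fetal liver and 0.348, 1.21 and 6.79 CPM in adult liver. The adult values rest on 1 to 14 reads a library, the ranges overlapped, and the difference of -0.49 log2 missed the fold threshold. It passed it with DESeq2 (-0.59), with size factors (-0.59), with library totals (-1.05), with no filter (-0.52) and without the 8 adult livers with a low share of reads on genes (-0.82).

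Among the repressors, Per1 and Per2 were the genes lower in adults. Per1, which is also induced quickly by hormones and feeding, ran from 12.3 through 21.6 to 61.2 CPM in fetal liver and from 1.06 through 13.1 to 33.9 CPM in adult liver. Of the adult livers, 11 lay below every fetal one and 0 above, and the difference was -0.58 log2 (SE 0.19, adjusted p = 0.00404). Without male fetal liver 11, which had the highest Per1, it was -0.50 and was not called.

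Per2 ran from 28.3 through 34.6 to 58.8 CPM in fetal liver and from 9.71 through 20.9 to 35.0 CPM in adult liver. In adult liver, 19 of 24 values lay below every fetal one (log2 -0.70, SE 0.089, adjusted p = 3.90e-10). Per3, at 15.9, 19.5 and 25.4 CPM (lowest, median, highest) in fetal liver and 5.82, 20.96 and 56.7 CPM in adult liver, had nearly the same median at both stages and a wider adult range on both sides, with 10 adult livers above and 7 below every fetal one. Its fitted mean difference of 0.56 log2 (SE 0.17, adjusted p = 0.00191) was past the threshold, but was 0.44 with DESeq2 and -0.01 when libraries were scaled by their totals, and was not called in either. Cry1, the partner of PER proteins in repression, ran from 12.8 through 16.8 to 23.6 CPM in fetal liver and from 4.84 through 13.9 to 26.0 CPM in adult liver, and its difference of -0.20 log2 (adjusted p = 0.0402) missed the fold threshold.

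Nr1d1, Dbp and Tef were higher in TMM-scaled CPM in every adult liver than in any fetal liver. Nr1d1, the repressor of Arntl, was at 0.249, 1.26 and 2.15 CPM (lowest, median, highest; 2 to 17 reads) in fetal liver and at 21.4, 36.7 and 60.9 CPM in adult liver. The ranges were far apart (log2 5.12, SE 0.13). Thra, which overlaps Nr1d1, went the other way (log2 -0.96).

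Dbp was at 0.425, 1.05 and 2.15 CPM (3 to 17 reads) in fetal liver and at 2.91, 35.7 and 105 CPM (5 to 309 reads) in adult liver. The lowest adult liver lay above the highest fetal liver, although adult livers differed among themselves by 36.0-fold (log2 5.43, SE 0.33). That lack of overlap rests on TMM scaling. Female adult liver 18 held 6 Dbp reads of 2543698 on genes, and female fetal liver 14 held 17 of 6899437, a slightly higher share. Sphk2, which overlaps Dbp, was also higher in adults (log2 1.64). Tef, the relative of Dbp, ran from 33.6 through 40.4 to 50.6 CPM in fetal liver and from 72.3 through 146 to 256 CPM in adult liver, again with no overlap (log2 2.06, SE 0.11, adjusted p = 1.25e-22).

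**Figure D1:**
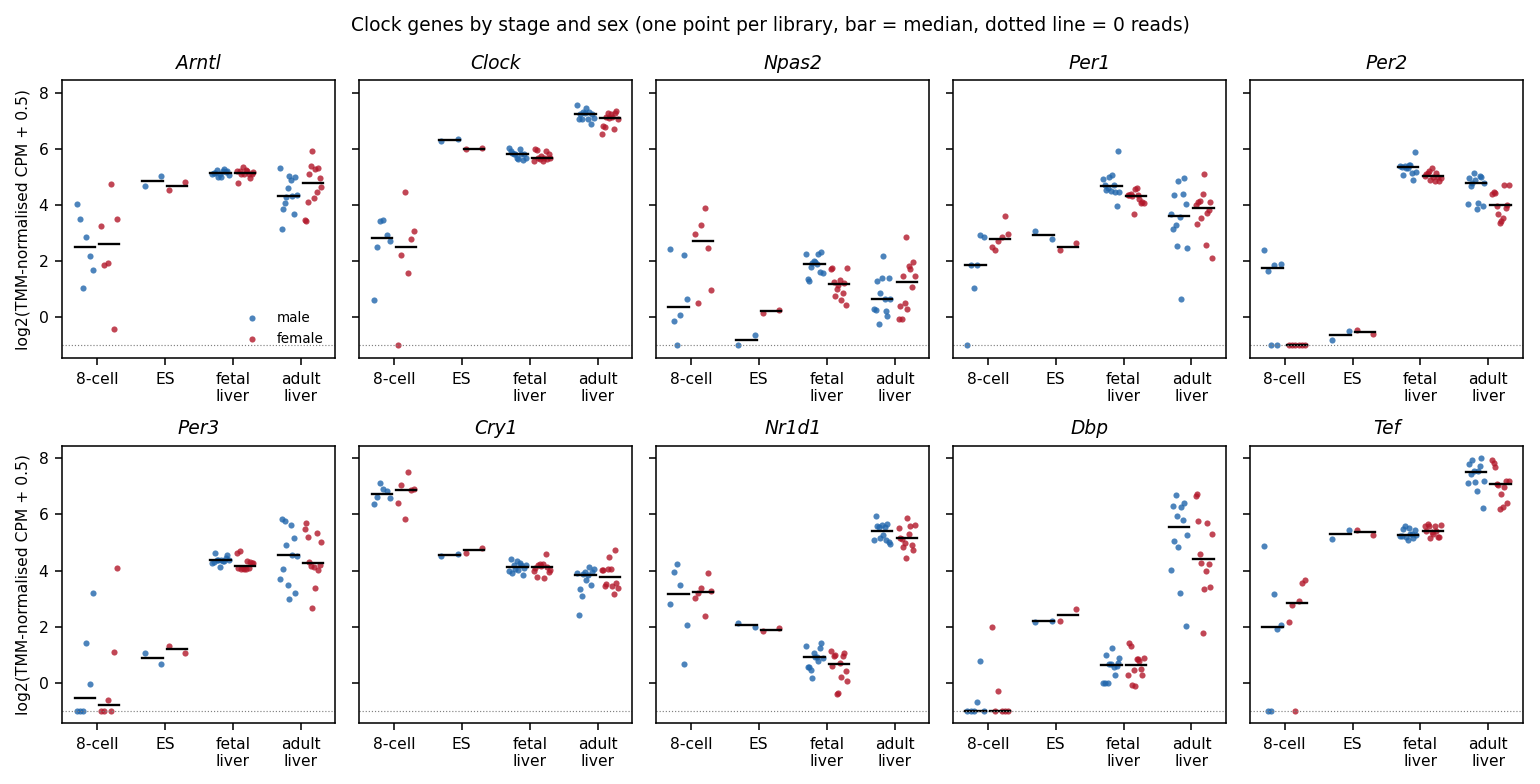
Level of each clock gene in every library, as log2(CPM + 0.5), in each of the 4 stages. Points are single libraries coloured by sex, bars are the median of each sex, and the dotted line is the value of 0 reads. In TMM-scaled CPM Nr1d1, Dbp, Tef and Clock sit higher in all adult livers than in any fetal liver. Cry1 is highest in embryos, which were made with another protocol.

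**Figure D2:**
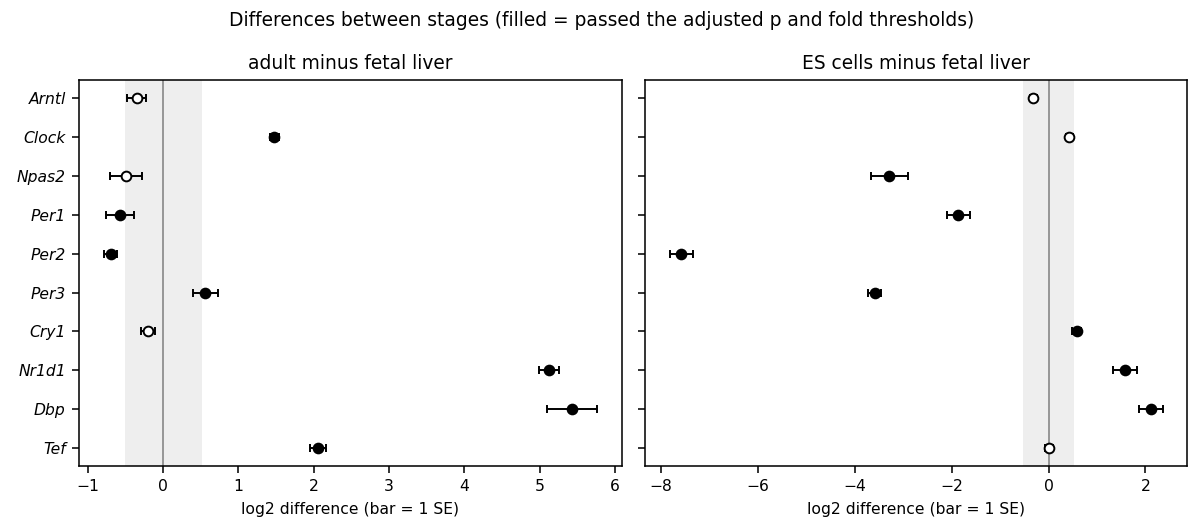
Fitted log2 differences of the 10 clock genes for adult against fetal liver and for ES cells against fetal liver, with bars of 1 standard error, filled points for called genes and a grey band for the fold threshold. Nr1d1 (5.12) and Dbp (5.43) lie farthest to the right for adult liver and Per2 (-7.58) farthest to the left for ES cells, where it rests on 1 to 3 reads a line.

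ES cells and fetal livers shared a library kit, and 7 of the 10 clock genes differed between them (3 higher and 4 lower in ES cells), beside 76.5% of the 14858 genes tested (35.3% higher, 41.2% lower). Ranges did not overlap for 6 of the 10, beside 66.8% of all genes. All 3 Per genes and Npas2 were lower in ES cells, and Dbp, Nr1d1 and Cry1 were higher. This compares cultured cells with a whole organ, and cell type and stage cannot be told apart.

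Per2 was near the floor in ES cells, where the 4 lines held 1 to 3 reads each (0.0722 to 0.231 CPM), against 171 to 465 reads in each fetal liver. Over summed, TMM-scaled reads, Per2 was 215-fold lower in ES cells, with a counting interval of 95% from 113 to 472-fold, and the fitted -7.58 log2 depends on the prior count added in the fit. Per3 (1.09 to 2.00 CPM in ES cells) was 3.59 log2 lower (SE 0.14) and Per1 (4.77 to 7.87 CPM) was 1.86 log2 lower (SE 0.24). Npas2 had 0 reads in one line and 2, 8 and 9 in the others, and fetal liver was higher by 7.08-fold (counting interval 4.48 to 11.9). For all 4 genes every ES line lay below every fetal liver.

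Cry1 was at 22.7 to 27.3 CPM in ES cells, with 3 of 4 lines above every fetal liver (log2 0.58, SE 0.094). Nr1d1 was at 3.08 to 3.90 CPM, above every fetal liver (log2 1.58, SE 0.25) and below every adult liver. Dbp was at 3.97 to 5.73 CPM, also above every fetal liver (log2 2.11, SE 0.24). Arntl (22.9 to 32.5 CPM, log2 -0.32) and Clock (62.9 to 82.1 CPM, log2 0.43) passed the p threshold and missed the fold threshold. Tef (34.8 to 43.5 CPM) differed by 0.00 log2 (adjusted p = 0.966). Per2 and Npas2 passed the filter only through the fetal livers, where they are high, so their differences are descriptions. Adjusted p for the other calls ran from 4.63e-21 (Per3) to 1.1e-06 (Cry1), and the 7 calls were made under each alternative, leaving out each ES line included.

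Eight-cell embryos were made with an amplifying single-cell protocol. Library protocol and stage cannot be told apart for them, and they entered no test against the others. Cry1 had reads in every embryo, at 57.0, 115 and 182 CPM (lowest, median, highest; 357 to 1086 reads). Nr1d1 ran from 1.08 through 8.88 to 18.3 CPM and Arntl from 0.248 through 5.38 to 26.4 CPM, each with reads in all 12 embryos. Clock (median 6.25 CPM), Npas2 (2.80) and Per1 (5.66) each had 0 reads in 1 embryo, and Tef (5.22) in 3.

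The remaining genes were at 0 in many embryos. Per3 had 0 reads in 6 of 12 embryos with a highest value of 16.4 CPM, and Dbp had 0 reads in 8 of 12 with a highest value of 3.50 CPM. Per2 had 33, 19, 0, 28, 0 and 24 reads in the 6 male embryos and 0 in all 6 females. In the females 3 reads would have been worth 0.402 to 0.557 CPM before TMM scaling. Per2 was below the filter on low counts and was not tested; with no filter its unadjusted edgeR p was 0.00442 and its adjusted p 0.288.

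Adult livers differed among themselves more in most of these clock genes than in most genes. The spread is given as the biological coefficient of variation (BCV), the relative spread between animals of 1 sex that edgeR separates from counting error. Its median over the 10372 genes tested in adult liver was 0.123. It was 0.830 for Dbp, 0.613 for Per1, 0.597 for Per3, 0.457 for Arntl and 0.341 for Tef, which put 99.9%, 99.7%, 99.6%, 99.0% and 97.5% of genes below them. Over the 200 genes nearest in level to Dbp the median was 0.113, and over those nearest to Arntl 0.119.

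The other adult values were 0.249 for Per2, 0.238 for Cry1, 0.229 for Nr1d1 and 0.152 for Clock, with 93.0%, 91.9%, 90.9% and 70.7% of genes below. In fetal liver, where the median was 0.103, Arntl (0.0671) had only 11.8% of genes below it. Tef (0.101), Clock (0.0888), Per3 (0.110), Cry1 (0.116) and Per2 (0.124) lay in the middle of the genes as well. Per1 (0.262) and the sparsely read Nr1d1 (0.246) and Npas2 (0.223) stood higher. The difference in spread between the stages was not tested, and depth was lower in adult liver.

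**Figure D3:**
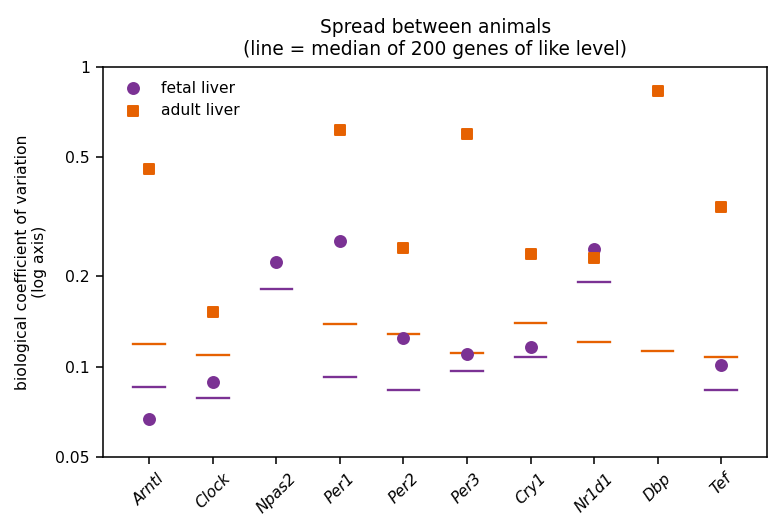
Biological coefficient of variation of the clock genes in fetal and adult liver, on a log axis, with a line for the median of the 200 genes nearest in level to each. In adult liver all genes shown lie above their lines, Dbp (0.830), Per1 (0.613), Per3 (0.597) and Arntl (0.457) among them. In fetal liver Arntl (0.0671) lies below its line and the other genes shown lie above theirs.

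The adult spread was shared between the genes. Correlations were computed over the 24 adult livers on log2(CPM + 0.5) after the mean of each sex was subtracted, for all 45 pairs of the 10 genes. Spearman's rho was above 0.5 in size for 22 of 45 pairs (8 positive, 14 negative), beside 6.68% of the 38680410 pairs that can be formed from the 8796 genes whose mean was 10 CPM or more. Across the 24 fetal livers 2 of 45 pairs were past 0.5, beside 7.42% of all pairs of genes above the same cut. In fetal liver the means of Nr1d1, Dbp and Npas2 lay below 10 CPM, as did that of Npas2 in adult liver. Counting error can weaken rho in pairs with such sparsely read genes. The fetal count of pairs is therefore not like for like with that share or with the adult count. The median size of rho over the 45 pairs was 0.49 in adult and 0.16 in fetal liver, and the difference between the stages was not tested. After adjustment over the 45 pairs, 30 (14 positive, 16 negative) were under 0.1 in adult liver in two-sided permutation tests within sex, and all 30 had the same sign in males and in females.

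The genes fell on 2 sides. Dbp, Tef and Per3 rose and fell together from animal to animal. For Dbp and Tef, r was 0.92 and rho 0.93 (permutation p = 1e-05 for each, the smallest that 100000 resamples can give), and r was 0.88 without the 2 livers farthest from the median of Dbp. For Per3 and Dbp, r was 0.91 and rho 0.92 (permutation p = 1e-05 for each), with r 0.88 without 2 livers. Per2 went with them (with Dbp, r 0.77 and rho 0.74, permutation p = 2e-05 and 6e-05; r 0.71 without 2 livers). Nr1d1 went with them more loosely (with Dbp, r 0.49 and rho 0.46, permutation p = 0.0167 and 0.0297; r 0.55 without 2 livers).

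Arntl, Clock and Npas2 formed the other side. Arntl rose with Clock (r 0.69, rho 0.72, permutation p = 0.00032 and 0.00021; r 0.72 without 2 livers) and with Npas2 (r 0.62, rho 0.59, permutation p = 0.00244 and 0.00405; r 0.51 without 2 livers). Against Dbp, Arntl gave r -0.74 and rho -0.77 (permutation p = 6e-05 and 4e-05; r -0.65 without 2 livers), and Clock gave r -0.69 and rho -0.78 (permutation p = 0.00017 and 1e-05; r -0.63 without 2 livers). Between Arntl and its repressor Nr1d1, r was -0.63 and rho -0.62 (permutation p = 0.00194 and 0.00227; r -0.62 without 2 livers). Npas2 fell against Tef (r -0.77, rho -0.77, permutation p = 4e-05 for each; r -0.72 without 2 livers), although it rests on 1 to 14 reads.

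Cry1 lay loosely on the side of Arntl (r 0.45, rho 0.45, permutation p = 0.0304 and 0.0327; r 0.47 without 2 livers). Per1 was in none of the 30 pairs, although its spread was the second highest. Its largest rho in size was -0.37, with Per3 (permutation p = 0.0879). A first principal component of the 10 standardised genes took 57.5% of their variance in adult liver and 26.1% in fetal liver, as a description.

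Single animals show the range. Female adult liver 18 had the highest Arntl (61.2 CPM) and Npas2 (6.79 CPM) and the lowest Dbp (2.91), Per3 (5.82), Per2 (9.71), Nr1d1 (21.4) and Tef (72.3) of the 24. Male adult liver 2 was at the other end, with the lowest Arntl (8.30 CPM) and Cry1 (4.84), the highest Per3 (56.7) and Nr1d1 (60.9), and Dbp at 77.5. Female adult liver 14 had the highest Dbp (105 CPM) with Arntl at 10.4. Some livers departed from the pattern. Female 19 (Dbp 9.57, Arntl 18.4) and male 3 (Dbp 33.0, Arntl 14.1) had both genes below their medians. Male 8 (Dbp 76.0, Arntl 29.6) and female 24 (Dbp 38.7, Arntl 24.3) had both above. Dbp values ran through the range without a gap that would split the animals into separate sets.

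**Figure D4:**
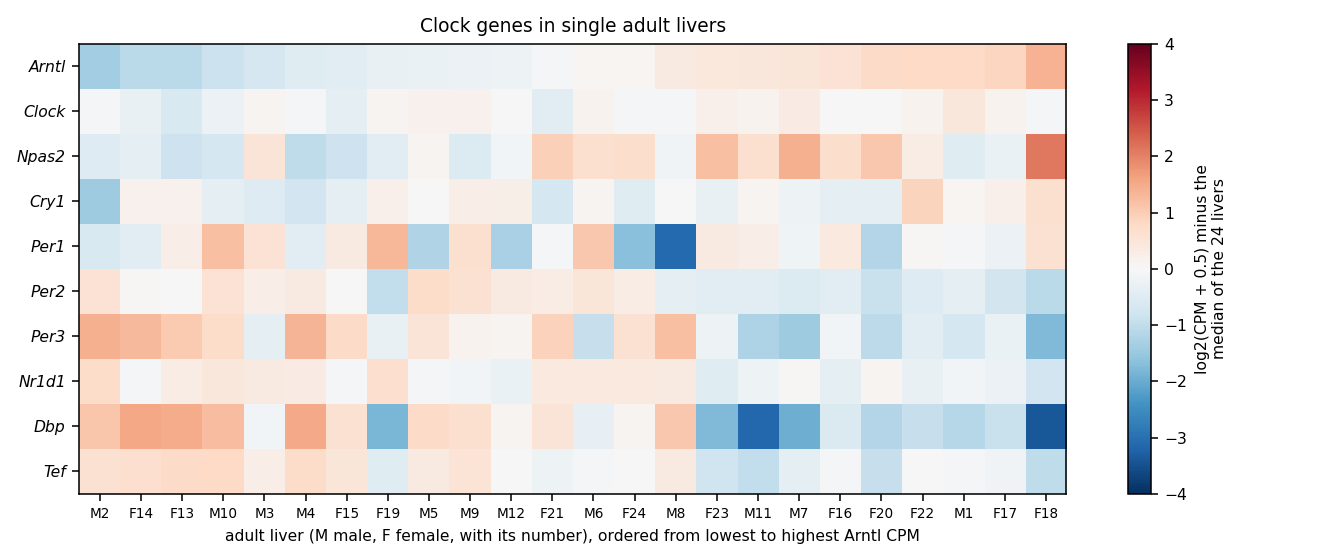
Levels of the 10 clock genes in the 24 adult livers, ordered from the lowest to the highest Arntl, as log2(CPM + 0.5) minus each gene's median over the 24 livers, with colour from -4 to 4. Dbp, Per3 and Tef are high at the low-Arntl end and low at the high-Arntl end, and Per1 has no such order.

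Values that describe the libraries moved with some of these genes, and are given as a description with no test. Across adult livers the log2 of total reads had a rho of 0.55 with Tef, 0.45 with Dbp and -0.44 with Npas2, the share of reads outside genes -0.41 with Tef and 0.40 with Nr1d1, and the sum of macrophage markers -0.54 with Nr1d1 and 0.49 with Cry1, and the sum of endothelial markers -0.44 with Npas2 and 0.40 with Tef. The sum of hepatocyte markers was within 0.23 of 0 for all 10 genes. With the share of reads outside genes removed, 35 of the 45 pairs were under the threshold, with log2 total reads removed 34, and in the 16 livers with at least 40% of mapped reads on genes 30. Dbp and Tef kept a rho of 0.95 in those 16 livers and 0.88 in the 8 others, and Arntl and Dbp -0.86 and -0.50. Among the 30 pairs, 28 had the same sign in those 8 livers, and Npas2 and Tef dropped to -0.24 there.

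In fetal liver only Per1 with Per2 (r 0.84, rho 0.66, permutation p = 3e-05 and 0.00096; r 0.60 without 2 livers) and Per3 with Cry1 (r -0.64, rho -0.73, permutation p = 0.00147 and 0.00013; r -0.61 without 2 livers) were under the threshold. Male fetal liver 11 had the highest value of both Per1 and Per2, and without it r was 0.72 and rho 0.59.

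**Figure D5:**
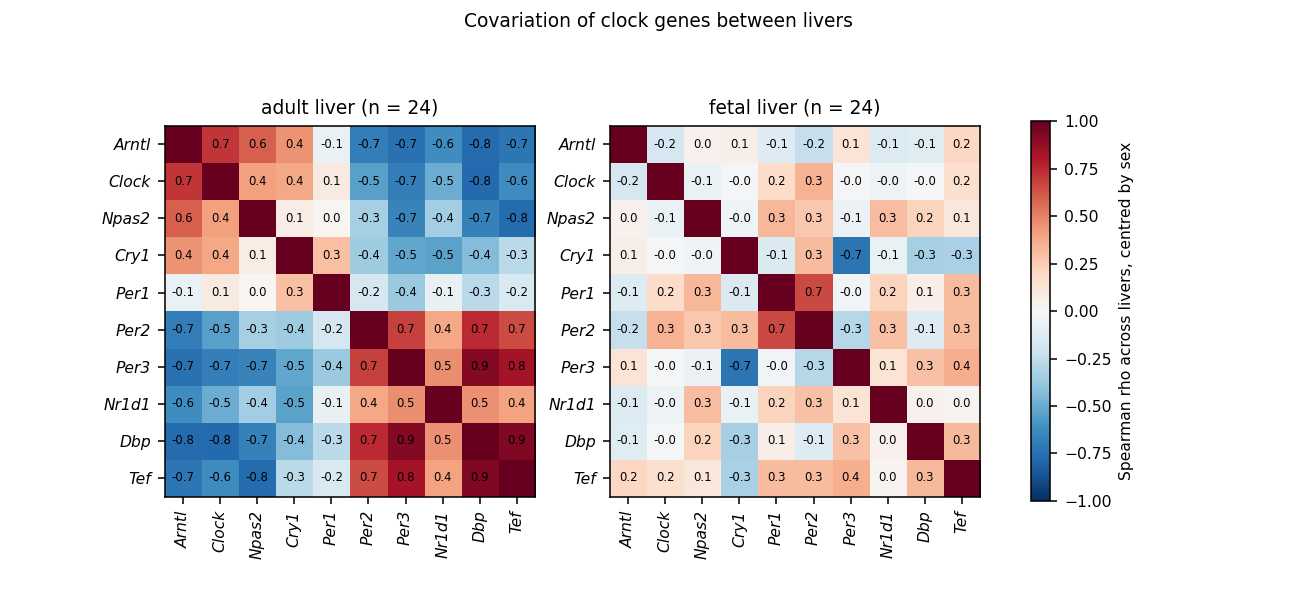
Spearman's rho between the 10 clock genes over the 24 adult livers and over the 24 fetal livers, centred by sex, with colour from -1 to 1. In adult liver Arntl, Clock and Npas2 are negative against Per2, Per3, Nr1d1, Dbp and Tef. In fetal liver, where Nr1d1, Dbp and Npas2 were sparsely read, 2 of 45 pairs are past 0.5 in size.

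Among the 8795 other genes whose mean in adult liver was 10 CPM or more, some clock genes were near the ends of the order of likeness and others were not. Npas2 was below that mean and had no rank. In the order of rho with Arntl, Dbp was the 3rd lowest, Per3 the 5th lowest, Tef the 10th lowest and Clock the 16th highest. Per2 was the 21st lowest, Nr1d1 the 65th lowest and Cry1 the 237th highest. Per1 was in the middle, as the 4639th highest. Among the genes most like Arntl were Chka (rho 0.85), Net1 (0.82), Hc (0.79), Lnx2 (0.78), C8a, C8b, Fga, Fgb and Nedd9. Hc, C8a and C8b encode complement proteins and Fga and Fgb chains of fibrinogen, all secreted by hepatocytes. The lowest were Mgmt (-0.78), Erbb4 (-0.78), Dbp, Cyp2a5 (-0.75) and Per3.

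With Dbp, Tef was the most like and Per3 the second, followed by Nr1d2 (rho 0.90), a paralogue of Nr1d1, Narf (0.88), Cyp2a5 (0.87), Ngef (0.86), Cyp2a22 (0.86), Slc25a10 (0.86), Lrtm1 (0.85) and Dpp4 (0.85). Cyp2a5 encodes a cytochrome P450 of drug metabolism, and it and Cyp2a22 belong to a family of close copies whose reads may be split. Among the lowest were Lnx2 (-0.85), Clock (-0.78), Dpp9 (-0.77) and Chka (-0.77). Farther from the ends, Nr1d1 was the 1199th highest and Per1 the 790th lowest. In all, 412 genes (4.68%) had a rho past 0.5 in size with Arntl and 1067 (12.1%) with Dbp. Sphk2, which shares exon sequence with Dbp, had a rho of 0.22 with it, and Thra a rho of 0.13 with Nr1d1.

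Sex was the contrast of the study. The clock genes called are given beside the share of all genes, and so few were tested that the counts say little about the clock genes as a set. None was called in eight-cell embryos (0 of 7 tested, beside 0.264% of 9087 genes, 0 at an unadjusted edgeR p under 0.05, and 0 by DESeq2, which gave an adjusted p for 1 of the 7). None was called in ES cells (0 of 8, beside 9.5% of 12678 genes, and 0 by DESeq2), where Clock was at an unadjusted edgeR p of 0.0141. In the ES lines leaving out one line moved the count for all genes between 0 and 3070, against 1205 with all 4.

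In fetal liver Npas2 and Per1 were higher in males (2 of 9 tested, beside 4.64% of 12930 genes). Npas2 ran from 1.97 through 3.27 to 4.56 CPM in males and from 0.851 through 1.77 to 2.92 CPM in females. Of the males, 8 of 12 lay above every female (log2 0.85, SE 0.19). Npas2 passed the filter on low counts only through the males, where it is high, so its difference is given as a description. Per1 ran from 15.3 through 25.0 to 61.2 CPM in males and from 12.3 through 19.8 to 23.7 CPM in females, with 7 of 12 males above every female (log2 0.59, adjusted p = 0.00723). Without male fetal liver 11 the Per1 difference was 0.42 and was not called.

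All 12 male fetal livers had more reads outside genes (39.9% to 49.0%) than any female one (34.1% to 38.1%). With that share as a covariate no clock gene was called, Npas2 stood at 0.24 and Per1 at -0.34, and 9 genes in all were called in place of 600, so sex and that share cannot be told apart in fetal liver. Per2 was past the p threshold and below the fold threshold (log2 0.33, adjusted p = 0.00209).

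In adult liver Per2 was the clock gene called (1 of 9, beside 9.49% of 10372 genes). It ran from 14.2 through 27.2 to 35.0 CPM in males and from 9.71 through 15.4 to 25.8 CPM in females, and 7 of 12 males lay above every female (log2 0.56, SE 0.17, adjusted p = 0.0148). The call was made under each of the 5 alternatives and without the fold threshold. A missing call does not show equal levels where animals differ widely. Dbp was not called, with medians of 47.2 CPM in males (3.58 to 102) and 21.2 CPM in females (2.91 to 105). Per2 also lay on the Dbp side of the correlations, and whether the males and females were collected at the same hours was not given in the sources used here.

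The test of whether the sex difference itself changed from fetal to adult liver called Npas2 (1 of 10, beside 33.7% of 13026 genes). The male minus female difference was 1.59 log2 units lower in adult than in fetal liver (SE 0.44). In that fit Npas2 passed the filter on low counts only through the male fetal livers, where it is high, so this value is a description. The mean was 1.40 CPM in adult males and 2.13 CPM in adult females, so the fetal male excess was not seen in adults, where Npas2 was too low to be tested by itself. With the share of reads outside genes as a covariate the value was -1.04 and was not called, and Per2 (0.52) was called in its place. Without the covariate the value for Per2 was 0.28 (adjusted p = 0.249).

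The wider loop was followed with 23 other clock regulators, 22 of them in the files. Between adult and fetal liver 11 of 18 tested were called (6 higher, 5 lower; median log2 0.09 against -0.05 for all genes), beside 67.1% of all genes. Higher in adults were, among others, Nr1d2 (log2 3.32) and Rora (1.44), which encodes an activator that competes with NR1D1 at ROR elements. Lower were Timeless (-3.56), which also acts in DNA replication, Btrc (-1.86), of a ubiquitin ligase for PER proteins, and Csnk1e (-0.99), a kinase of PER proteins. In ES cells against fetal liver 15 of 19 were called (6 higher, 9 lower; median -0.29 against -0.08), beside 76.5% of all genes, with Gm129 (2.34), a repressor also known as Ciart, Sirt1 (1.41) and Timeless (1.19) higher. Among the lower ones, Rora was at 0.31 to 0.65 CPM in ES cells against 15.1 to 27.6 in fetal liver, and Hlf, a relative of Dbp, was 4.53 log2 lower. Rora and Hlf passed the filter on low counts only through the fetal livers, where they are high, so their differences are descriptions.

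Clock output genes were followed with a list of 22, of which 21 were in the files. Between adult and fetal liver 12 of 20 were called (10 higher, 2 lower; median 0.71 against -0.05), beside 67.1% of all genes (31.7% higher, 35.4% lower), led by Elovl3 (log2 8.44), an enzyme of fatty acid elongation, Mfsd2a (7.32), a lipid transporter, and Alas1 (3.34), the first enzyme of haem synthesis. The fetal medians of Elovl3 and Mfsd2a were 0.13 CPM, near 1 read, so the size of these changes depends on the prior count. Both genes passed the filter on low counts only through the adult livers, where they are high, so their differences are given as descriptions. Wee1 (-2.19), a kinase that holds back mitosis, and Ppard (-0.61), a nuclear receptor of lipid metabolism, were lower in adults. In ES cells against fetal liver 17 of 19 were called (5 higher, 12 lower; median -1.12 against -0.08), beside 76.5% of all genes, with Wee1 (1.39), Nampt (1.26), an enzyme of NAD synthesis, and Leo1 (1.23) higher, and Gys2, the liver glycogen synthase, Cyp7a1, the rate-limiting enzyme of bile acid synthesis, and Cys1 lower. These 3 had 0 reads in every ES line, against 166 to 240 CPM for Gys2, 25.4 to 141 for Cyp7a1 and 0.25 to 1.72 for Cys1 in fetal liver. They passed the filter on low counts only through the fetal livers, so their differences are descriptions.

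Between the sexes, no other clock regulator was called in embryos (0 of 15), ES cells (0 of 16) or adult liver (0 of 16), and Hlf was called in fetal liver (1 of 18, log2 0.72). The shares of all genes called were 0.264%, 9.5%, 4.64% and 9.49% in embryos, ES cells, fetal and adult liver. Of the output genes 0 of 13 were called in embryos, and in ES cells 3 of 16, Cirbp (0.63), Lonrf3 (-2.18) and Usp2 (-1.15). Over 8 settings, Cirbp and Usp2 were called in 5 and Lonrf3 in 6. Ppard was called in fetal liver (1 of 18, log2 0.66), and 4 of 18 in adult liver. Those were Elovl3, higher in males by 5.57 log2, and Mfsd2a (-1.35), Cyp7a1 (-1.30) and Por (-0.60), the reductase that serves cytochromes P450, which were higher in females. With the share of reads outside genes as a covariate, the fetal values of Hlf and Ppard were 0.19 and 0.16, and neither was called.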

How the data were processed

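RNA-seq libraries of 64 samples were analysed from the deposited counts per gene. Per the study's methods and the submitters' processing notes, the authors aligned reads to mm10 with TopHat2 2.0.4 and Bowtie2 2.1.0, handled them with SAMtools 0.1.18, removed duplicate reads with Picard, and counted reads per gene with HTSeq. Duplicate removal compresses the counts of highly expressed genes. The strand setting was not given in the sources used here. Fetal livers were from 17.5 days post-coitum. The summary lines of the count files were left out of library sizes and used only as the share of reads outside genes (8.63% to 49.0%). Depth was 1567583 to 10386931 reads on genes, and floors and intervals cover counting error only. No library duplicated another (0 identical of 296 pairs within groups).

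Counts were fitted with edgeR 4.0.16 (TMM, filterByExpr by group, robust quasi-likelihood F test) in R 4.3.3 on all genes. For the livers, 1 fit held 4 groups by stage and sex. A call needed an adjusted p under 0.1 and an absolute log2 above 0.5, with no fold threshold for the interaction. Where labels do not say that samples are separate animals or cultures, p-values measure the spread between samples. Correlations used log2(CPM + 0.5) centred by sex and 100000 permutations within sex, adjusted over 45 pairs per stage (Python 3.11.15, scipy 1.17.1). The fits were tested on simulated counts. Alternatives were DESeq2 1.42.0, its size factors, no filter, no fold threshold, a covariate, a replicate block, left-out libraries, another pseudocount and single sexes. Scaling by library totals, leaving out male fetal liver 11 or female fetal liver 14, and total reads as a covariate were added after seeing the data. The genes, gene lists and tests were chosen with earlier results of these data known. Named were all 10 genes, up to 3 called genes per direction of each list, and the 10 most and 5 least like Arntl and Dbp. Promoters were from RefSeq (GRCm38.p6) and exon overlaps from GENCODE vM21. Some genes that this rule names are not reported here.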

Additional observations from a re-analysis of the deposited data

Results flagged for a closer look

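In eight-cell embryos 7 of the 19 groups of 6 values examined held a highest value far from the others. The cut-off used is one that about 1 in 20 groups of normally distributed values would pass. It was applied to CPM without a log, and these counts were skewed, with no reads of Per3 or Dbp in many embryos. That rate therefore cannot be set beside the 7, and no excess of extreme values is claimed. Clock was at 21.9 CPM in female embryo 9 (next 8.05) and Per1 at 11.7 CPM in female embryo 11 (next 7.40). Per3 was at 8.59 CPM in male embryo 6 (next 2.14) and at 16.4 CPM in female embryo 12 (next 1.62). Dbp was at 1.23 CPM in male embryo 5 (next 0.113) and at 3.50 CPM in female embryo 7 (next 0.319), and Tef was at 28.9 CPM in male embryo 1 (next 8.46). Each lay in another embryo.

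A change in the male minus female difference from fetal to adult liver was called by edgeR's interaction test for Npas2 (-1.59 log2, adult minus fetal). It was also called for 5 of 18 other regulators and for 8 of 20 output genes, beside 33.7% of all genes tested. In fetal liver sex and the share of reads outside genes cannot be told apart, which limits all these values. Among the regulators it was 0.26 for Sirt1, 0.22 for Csnk1d, 0.17 for Fbxw11, -0.49 for Hlf and -0.25 for Ncor1. Among the output genes named it was 7.20 for Elovl3, 0.59 for Gys2, 0.46 for Coq10b, -1.34 for Cyp7a1, -1.18 for Ccrn4l and -0.66 for Por. The fetal median of Elovl3 was 0.13 CPM, near the floor, so the size of its value depends on the prior count. Elovl3 passed the filter on low counts only through the adult livers, so its value is a description. The call of Fbxw11 was made in 1 of 9 settings, and Hlf stood between -0.51 and 0.02 over them. Ncor1 stood between -0.26 and -0.03 and was called in 8. Sirt1, Csnk1d and Hlf were called in 7 and Coq10b in 6, and the other output genes named in all 9. Npas2 passed the filter on low counts only through the male fetal livers, so its value is a description.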

How the results depend on the processing

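Of 499 values of the 10 genes under alternative settings, 473 kept direction and side of the threshold, 7 lost the call, 17 gained it and 2 reversed. The reversals were Per3 in adult against fetal liver when libraries were scaled by their totals (-0.0092 log2), and Per1 between the fetal sexes with the share of reads outside genes as a covariate (-0.34). Under that scaling 9 clock genes were called in adult against fetal liver, with Arntl, Npas2 and Cry1 lower, and with size factors the split of all calls was 3780 higher and 4981 lower. Clock, Tef and Per2 were called the same way in every setting of that comparison. Nr1d1 and Dbp were too, but they passed the filter on low counts only through the adult livers and are descriptions. Between the fetal sexes the 2 calls became 4 without a fold threshold, 1 without male fetal liver 11 and 0 with the covariate, and between the ES sexes 0 became 0 to 1 on leaving out each line (Per1, 0.59). The 30 adult pairs became 16 in males and 9 in females, with fewer animals, and 28 to 35 otherwise. Counts over all genes moved for the embryo sexes (24, and 64 by DESeq2), the ES sexes (1205, and 0 to 3070 without a line), the fetal sexes (600, with 4807 without a fold threshold, 1057 without a filter and 9 with the covariate), the adult sexes (984, with 3400 and 1518) and the interaction (4384, and 2352 with the covariate).

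Sample numbers run from 1 to 24 in both livers. With the number as a replicate block, 6 clock genes were called in adult against fetal liver (Per3, 0.44, was lost) and 1 in the interaction. Same-numbered livers did not deviate together (median r -0.0045, range -0.0914 to 0.0445, and 1 of 24 correlated best with its own number). All 24 numbers matched in sex. Whether same-numbered livers share more than number and sex cannot be told from these values. Depth limits Npas2 in adult liver and Nr1d1 and Dbp in fetal liver, which rest on 17 reads or fewer a library. In adult liver Dbp ran down to 5 reads.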
